A study of Mus musculus with 4 samples.

Results

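The early response genes Egr1, Klf2, Klf4, Klf6, Klf10, Ier2, Ier3, Ier5, Btg2 and Myc were followed in mouse liver after hepatectomy, the surgical removal of liver tissue. They were taken by gene symbol from a table of 24421 mouse symbols, in which all 10 were found. The gelADSC group (2 libraries, numbered 2 and 3) received a fibrin gel that carried ADSC (stem cells from fat tissue). The control group (2 libraries, numbered 1 and 3) received the fibrin gel alone, so that hepatectomy and the gel were common to both groups. The sources used here do not state the strain, sex or age of the mice, the time between surgery and sampling, or the donor of the ADSC. Because nothing states that the libraries of a group came from separate animals, p-values measure the spread between these libraries, which may be technical. The test used, limma, also pulls the spread of each gene towards a value shared over genes. A p-value or interval therefore does not rest on the libraries of that gene alone, and a wide gap within a group can be understated.

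Immediate early genes are transcribed within a short time of a growth, stress or injury signal, without the need for newly made protein, and most of their mRNAs are short-lived. In liver they are known for their rapid induction after hepatectomy, when quiescent hepatocytes are primed to re-enter the cell cycle. The genes followed here encode zinc finger transcription factors (Egr1 and the Klf proteins), the basic helix-loop-helix factor Myc, small regulators of survival and signalling (the Ier proteins) and an antiproliferative adaptor (Btg2).

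All 10 early genes had a lower mean level in gelADSC livers than in control livers, and for 6 of them the difference passed the test. Ier3 stood far from the rest, at 1.65 ± 0.331 FPKM in gelADSC and 49.3 ± 1.87 FPKM in control (SD, n = 2 each). Klf6, Btg2, Myc, Klf4 and Ier2 fell to between 20.6% and 46.6% of the control mean. Klf10, Ier5, Klf2 and Egr1 did not pass the test, with gelADSC means between 52.5% and 65.3% of the control means. FPKM are sequenced fragments scaled by transcript length and by the depth of the library, so levels can be compared between genes. The test was limma on log2(FPKM + 1) over the 11070 genes averaging 1 FPKM or more, two-sided, with Benjamini-Hochberg adjustment and a threshold of 0.05. Klf4, counted among the 6, met that average through the control libraries, since its gelADSC mean was 0.925 FPKM. By that test 17.5% of all tested genes were lower, against 6 of the 10 early genes, and 6.92% were higher, against 0 of the 10, also at an unadjusted p under 0.05. The groups did not overlap, with both gelADSC libraries lower, for 9 of the 10 early genes, and the same held for 50.5% of all tested genes. The median log2 change, gelADSC minus control, was -1.14 over the 10 early genes and -0.25 over all tested genes.

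**Figure D1:**
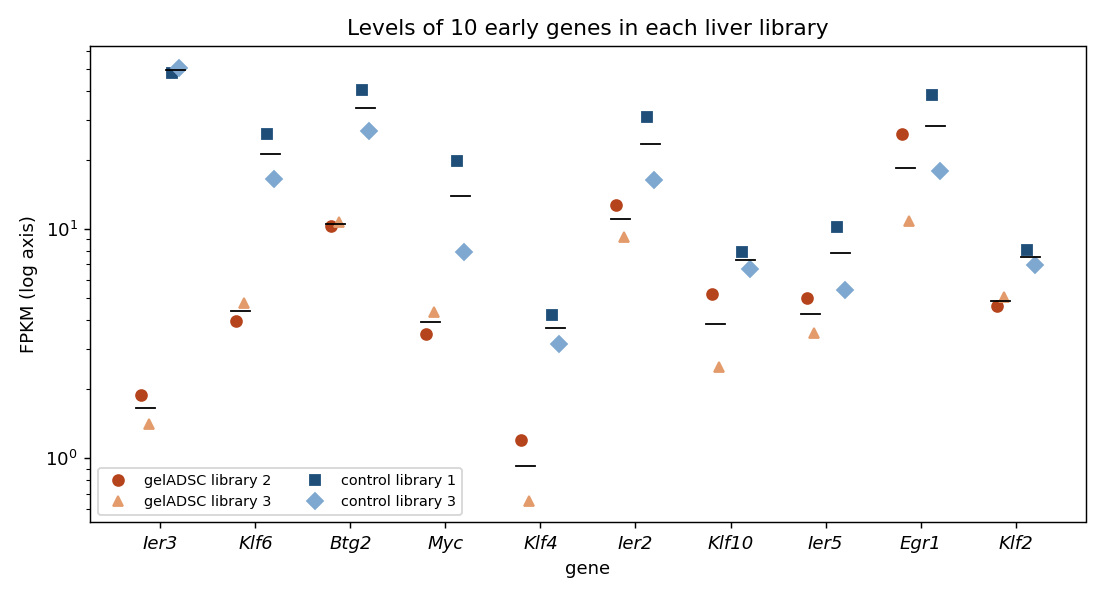
Level of each early gene in each library, in FPKM on a log axis, with gelADSC libraries on the left and control libraries on the right of each gene and a line at each group mean. Genes are ordered by log2 change, and only for Egr1 do the libraries of the groups interleave.

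Across all tested genes 766 were called higher and 1936 lower, so that 28.3% of calls were higher. The share was 50.1% with median ratio scaling of the libraries and 48.1% with quantile normalization, both of which remove the overall shift. Under median ratio scaling the median of the early genes was -0.90, and -0.90 relative to the median of all genes. Under quantile normalization it was -0.94, and -0.90 relative to all genes. Depth, read from the smallest steps between values, came to roughly 24500000 and 20200000 reads in gelADSC libraries 2 and 3 and 20000000 and 18100000 in control libraries 1 and 3. Liver identity was checked with 10 hepatocyte markers, whose summed level was 57911 and 76885 FPKM in gelADSC and 67758 and 82057 FPKM in control. The globin genes Hba-a1, Hba-a2, Hbb-bs and Hbb-bt were listed at 0 in all 4 libraries, so a listed 0 can be a value the processing did not resolve.

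RefSeq promoter sequences on build GRCm38.p6 were matched for 6 of the 10 genes (Klf2, Klf4, Klf6, Ier3, Ier5 and Btg2). The 250 bases before the transcription start are shown for genes called lower under every alternative setting (Ier3, Klf6 and Btg2) and under none (Klf2). They lie at chr17:35821463-35821712 on the plus strand (Ier3), chr13:5861239-5861488 on the plus strand (Klf6), chr1:134079156-134079405 on the minus strand (Btg2) and chr8:72318812-72319061 on the plus strand (Klf2). Each reads 5′ to 3′ towards the gene, and capitals mark the motifs searched on both strands that are described after the sequences.
Ier3: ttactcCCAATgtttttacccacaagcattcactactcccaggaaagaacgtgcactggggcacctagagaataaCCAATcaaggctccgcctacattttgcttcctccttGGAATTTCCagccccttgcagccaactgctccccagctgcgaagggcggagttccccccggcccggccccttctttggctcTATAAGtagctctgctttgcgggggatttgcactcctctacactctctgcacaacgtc
Klf6: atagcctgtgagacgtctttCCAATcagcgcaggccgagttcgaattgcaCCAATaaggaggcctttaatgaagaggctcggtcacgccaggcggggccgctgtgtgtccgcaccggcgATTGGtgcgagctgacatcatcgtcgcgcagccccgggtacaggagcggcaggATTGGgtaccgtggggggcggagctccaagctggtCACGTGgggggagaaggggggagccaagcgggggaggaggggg
Btg2: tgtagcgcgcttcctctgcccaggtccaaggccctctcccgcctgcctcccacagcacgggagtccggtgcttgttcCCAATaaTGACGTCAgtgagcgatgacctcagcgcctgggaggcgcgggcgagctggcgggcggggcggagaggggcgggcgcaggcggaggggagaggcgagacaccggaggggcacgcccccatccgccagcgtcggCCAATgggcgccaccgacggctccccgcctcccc
Klf2: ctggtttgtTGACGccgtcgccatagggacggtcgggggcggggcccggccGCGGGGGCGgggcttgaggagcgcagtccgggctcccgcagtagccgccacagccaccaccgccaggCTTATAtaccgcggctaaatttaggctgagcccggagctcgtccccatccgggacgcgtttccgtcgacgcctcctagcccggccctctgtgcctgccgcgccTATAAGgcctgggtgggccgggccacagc

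The Ier3 window held GGAATTTCC, a letter string of the NF-kB type, starting 139 bases before the start, a string found in 0.286% of 32851 promoter windows of this length. It also held TATAAG, which is found in 6.65% of windows, 58 bases before the start. TATAAG also stood in the Klf4 and Ier5 windows and, on both strands, in the Klf2 window. The Btg2 window held TGACGTCA, the cyclic AMP response element, 166 bases before the start, and this is found in 1.55% of windows. The shorter TGACG, which overlaps it, is found in 17.8% of windows and also stood in the Klf2 and Klf4 windows. Klf6 had 4 matches to CCAAT, 2 on each strand, and an E-box CACGTG, the letters that Myc and its relatives can bind, 43 bases before the start. CCAAT is found in 33.8% of windows and also stood in the Ier3, Ier5 and Btg2 windows. CACGTG is found in 6.02% of windows, and Klf4 also had it. Klf2 and Klf4 both held GCGGGGGCG, a letter string of Egr binding sites found in 2.57% of windows, which in Klf2 began 199 bases before the start and overlaps the GC-rich runs around it. No CArG box, the binding letters of serum response factor, stood in the 6 windows, and 1.47% of all windows hold one. These matches describe letters in a window and not binding.

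Ier3, also called IEX-1, is a stress-inducible regulator of cell survival and a known target of NF-kB. It read 1.88 and 1.41 FPKM in gelADSC libraries 2 and 3, against 48.0 and 50.6 FPKM in control libraries 1 and 3. The lower control library was 25.5 times the higher gelADSC library, and the libraries of each group lay close together. The log2 change was -4.25 (SE 0.20, 95% interval -4.71 to -3.80, limma adjusted p = 1.34e-05), which placed Ier3 at rank 7 from the lowest of all tested genes. The gelADSC values rest on roughly 52 and 32 reads and the control values on roughly 1100 and 1000 reads. Across the settings tried, the log2 change of Ier3 lay between -4.83 and -3.03 and its adjusted p did not exceed 0.00732.

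The other Ier genes showed smaller differences. Ier2, a nuclear protein of the early growth response, read 12.7 and 9.26 FPKM in gelADSC and 30.8 and 16.4 FPKM in control. Its groups did not overlap, but control library 1 was 1.88 times control library 3. The log2 change of Ier2 was -0.99 (SE 0.30, limma adjusted p = 0.0440), close to the threshold. The call was lost under 7 of 11 alternatives, among them without control library 1 (adjusted p = 0.254), without gelADSC library 3 (0.0825) and with median ratio scaling (0.153). Ier5, which is known to act with the heat shock factor HSF1, read 4.98 and 3.51 FPKM in gelADSC and 10.2 and 5.44 FPKM in control. The higher gelADSC library and the lower control library of Ier5 differed by a factor of 1.09 only. Its log2 change was -0.71 (95% interval -1.38 to -0.04) and did not pass the test (limma adjusted p = 0.109). Without control library 3 the log2 change of Ier5 was -1.11. Whether Ier2 or Ier5 differed less than Ier3 was not tested.

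Klf6, a Krüppel-like zinc finger factor of liver injury and regeneration, read 3.98 and 4.77 FPKM in gelADSC, against 26.1 and 16.4 FPKM in control. Both gelADSC libraries were low and close to each other, and the lower control library was 3.45 times the higher of them. The log2 change of Klf6 was -2.02 (SE 0.25, 95% interval -2.59 to -1.45, limma adjusted p = 0.00124). Klf4, a factor of epithelial differentiation and of reprogramming to pluripotency, read 1.20 and 0.652 FPKM in gelADSC and 4.22 and 3.14 FPKM in control. It was the lowest of the 10 genes in both groups. All 10 genes passed the filter on low values, Klf4 through the control libraries, since its gelADSC mean was 0.925 FPKM, and its gelADSC values rest on roughly 90 and 40 reads. The log2 change of Klf4 was -1.29 (SE 0.25, limma adjusted p = 0.00851), a value that understates the linear ratio because of the added 1. With an added value of 0.1 it was -1.92 and with 5 it was -0.55, both past the test. The call of Klf4 was lost without control library 1 and with no filter on low values (limma adjusted p = 0.0558).

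Klf10, known as the TGF-beta inducible early gene, read 5.18 and 2.51 FPKM in gelADSC and 7.97 and 6.67 FPKM in control. The gelADSC libraries were apart by a factor of 2.06, and both lay below the controls. Its log2 change was -0.83 (95% interval -1.49 to -0.18) and did not pass (limma adjusted p = 0.0647). Without gelADSC library 2 the change was -1.24. Klf2, a factor of quiescent endothelium that responds to blood flow, read 4.63 and 5.03 FPKM in gelADSC and 8.10 and 6.96 FPKM in control. The libraries of each group lay close together and the groups did not overlap. Klf2 had a log2 change of -0.55 (95% interval -1.01 to -0.09, limma adjusted p = 0.0795), and it passed under 0 of 11 alternatives.

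Klf2 and Klf4 are expressed in endothelium, and the levels of 20 sinusoidal endothelial markers were set beside them. These summed to 242 and 215 FPKM in gelADSC libraries and 248 and 218 FPKM in control libraries. By limma 2 of the 20 were lower (Lyve1 and Nos3) and 3 higher (Kdr, Stab2 and Ehd3), all named after their values were seen. The median log2 change of the 20 was -0.12. Of all tested genes 17.5% were lower and 6.92% higher. Nos3, the endothelial nitric oxide synthase, read 2.29 and 1.81 FPKM in gelADSC and 7.17 and 6.03 FPKM in control. Kdr, a receptor of VEGF, went the other way, at 9.68 and 8.71 FPKM in gelADSC and 4.41 and 3.83 FPKM in control. The scavenger receptor Stab2 read 9.49 and 10.5 FPKM in gelADSC and 6.03 and 5.02 FPKM in control. The remaining called markers were Lyve1, at 9.29 and 3.85 FPKM in gelADSC and 17.6 and 18.2 FPKM in control, and Ehd3, at 19.0 and 23.6 FPKM in gelADSC and 10.4 and 10.2 FPKM in control. In bulk tissue fewer cells of a type and less RNA per cell cannot be told apart.

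Btg2 belongs to a family of antiproliferative proteins that recruit the mRNA deadenylase complex, and it is also a p53 target. Its values were 10.3 and 10.7 FPKM in gelADSC and 40.6 and 26.7 FPKM in control. The gelADSC libraries were nearly equal, and the lower control library was 2.50 times the higher of them. The log2 change of Btg2 was -1.56 (SE 0.23, 95% interval -2.09 to -1.03, limma adjusted p = 0.00273), and its adjusted p did not exceed 0.0356 in any alternative. Without control library 1 it was -1.26 and still passed.

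Myc, the transcription factor of cell growth and ribosome production, read 3.48 and 4.34 FPKM in gelADSC and 19.9 and 7.97 FPKM in control. Control library 1 was 2.49 times control library 3, the widest spread within the controls among the 10 genes, yet both stood above the gelADSC libraries. The log2 change of Myc was -1.48 (SE 0.36, limma adjusted p = 0.0210). The call of Myc was lost without control library 1, where the change was -0.87. It was also lost with no filter on low values (limma adjusted p = 0.106), under median ratio scaling (0.0736) and under quantile normalization (0.0650).

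Egr1, a zinc finger factor induced through serum response factor and MAP kinase signalling, read 25.99 and 10.9 FPKM in gelADSC and 38.5 and 17.8 FPKM in control. This was the 1 gene whose groups overlapped, since gelADSC library 2 stood above control library 3. The spread within each group was wide, by factors of 2.39 in gelADSC and 2.16 in control, with roughly 980 to 3500 reads behind each value. The log2 change of Egr1 was -0.61 (95% interval -1.59 to 0.37, limma adjusted p = 0.320). It ranged from -0.02 without gelADSC library 3 to -1.20 without gelADSC library 2. The only spread of Egr1 left in these fits is that between the control libraries, and limma gave it little weight beside the spread shared over genes.

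**Figure D2:**
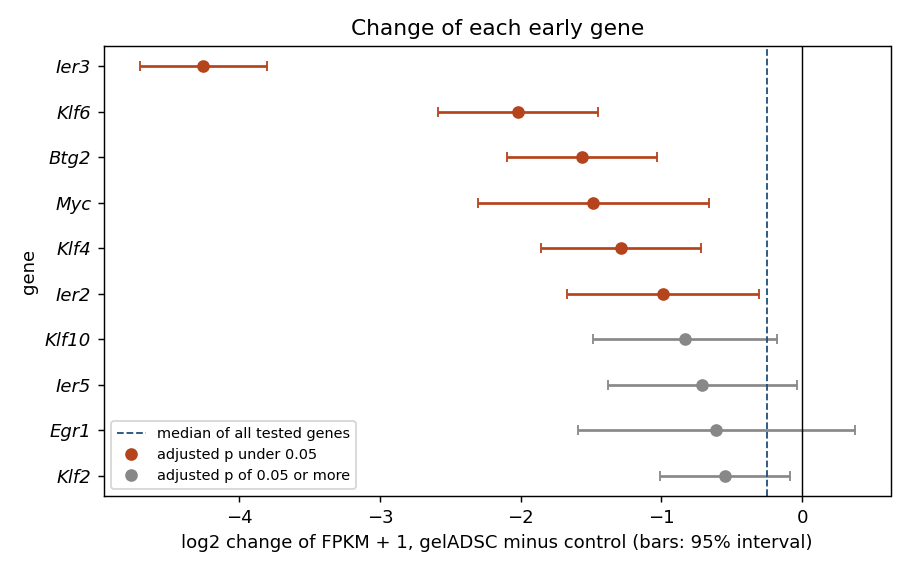
Log2 change of FPKM + 1, gelADSC minus control, for each early gene, with its 95% limma interval. Points in red passed an adjusted p of 0.05, points in grey did not, and the dashed line is the median of all tested genes at -0.25. The interval of Ier3 (-4.71 to -3.80) lies apart from those of the other 9 genes, and only that of Egr1 reaches above 0.

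The libraries of a group also differed from each other. Control library 1 read higher than control library 3 for 9 of the 10 genes, all but Ier3, with a median log2 difference of 0.61. Over all tested genes 76.8% were higher in control library 1, with a median of 0.21. Between the gelADSC libraries, 6 of the 10 genes were higher in library 2, with a median log2 difference of 0.33, against -0.10 over all tested genes. The difference between groups exceeded both differences within groups for Ier3, Klf6, Btg2, Myc, Klf4, Ier2, Klf10 and Klf2, but not for Ier5 or Egr1. Without control library 1, 3 of the 10 genes were called lower (Klf6, Ier3 and Btg2), where 3.01% of all tested genes were. The same 3 were called with no filter on low values, against 4.16% of all genes then tested. Klf4 joined them under median ratio scaling and quantile normalization, which called 8.56% and 9.06% of all tested genes lower. Without gelADSC library 2 the median log2 change of the 10 genes was -1.30, against -0.21 over all tested genes.

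**Figure D3:**
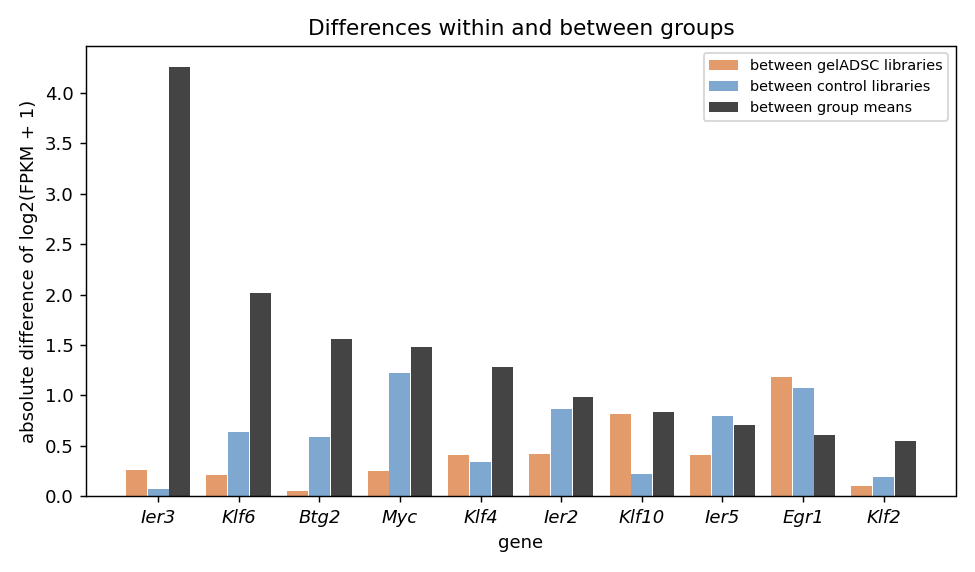
Absolute differences of log2(FPKM + 1) for each early gene, between the gelADSC libraries (orange), between the control libraries (blue) and between the group means (dark grey). For Ier3 the group difference of 4.25 exceeds both others, and for Egr1 it is smaller than either.

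The order of the levels differed between the groups. In gelADSC livers Egr1 had the highest mean (18.4 ± 10.7 FPKM), followed by Ier2 (10.999 ± 2.46) and Btg2 (10.5 ± 0.293), whose ranges over libraries overlapped from one to the next. Klf2, Klf6, Ier5, Myc and Klf10 then formed a run of overlapping neighbours with means between 4.83 and 3.84 FPKM, followed by Ier3 and, lowest, Klf4. In control livers Ier3 was highest (49.3 ± 1.87 FPKM) and did not overlap the next gene, Btg2 (33.6 ± 9.83). From Btg2 through Egr1, Ier2, Klf6, Myc, Ier5 and Klf2 to Klf10 each gene overlapped its neighbour, and Klf4 (3.68 ± 0.765 FPKM) was lowest and apart. Summed over the 10 genes, the level was 74.3 and 53.03 FPKM in gelADSC and 234 and 158 FPKM in control.

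Other early genes were set beside these. Shares of all tested genes called lower, against which the counts in other settings can be read, were 8.56% under median ratio scaling, 9.06% under quantile normalization, 4.16% with no filter, 27.4% with a filter at a mean of 5 FPKM, and with a library left out 3.01% (control 1), 15.3% (control 3) and 10.9% (gelADSC 2). Of 7 tested genes of the AP-1 family and Atf3, 5 were lower and 0 higher by limma, and 0 were higher at an unadjusted p under 0.05. The 5 include Fosl1, which was listed at 0 in both gelADSC libraries, read 5.97 and 0.875 FPKM in control and passed the filter on low values through the controls alone, so no fold or p is given for it. The median log2 change was -1.26 with Fosl1 and -1.19 over the other 6 genes. Fos, a partner of Jun in AP-1, read 0.939 and 1.75 FPKM in gelADSC and 9.63 and 4.56 FPKM in control (adjusted p = 0.00801). Atf3, a stress-induced factor of the same superfamily, and Junb had log2 changes of -1.69 and -1.26. Jund, named after its value was seen, had a log2 change of -1.11. With median ratio scaling or quantile normalization 2 of these genes were called lower, and without control library 1, 0 were.

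Of 29 other immediate early genes tested, 17 were lower and 0 higher by limma, with 20 lower and 0 higher at an unadjusted p under 0.05. Their median log2 change was -0.94. Dusp5, a phosphatase of ERK kinases, read 1.14 and 0.602 FPKM in gelADSC and 13.6 and 5.74 FPKM in control (log2 change -2.42, adjusted p = 0.00258). Ctgf, a secreted matricellular protein, read 2.64 and 6.61 FPKM in gelADSC and 26.1 and 19.8 FPKM in control (adjusted p = 0.00323). Hbegf, a ligand of the EGF receptor, and Maff, a small Maf factor, fell with log2 changes of -1.78 and -1.76. With either scaling the number called lower was 5, with no filter on low values 4, without control library 1 it was 3 and without control library 3 it was 8. Calls of Ctgf and Hbegf were lost without control library 1 (adjusted p = 0.0872 and 0.0740), and that of Hbegf also with no filter (0.0796), while Dusp5 was called under all 11 alternatives. The call of Maff was lost without control library 1 (0.241), with no filter and with either scaling. Dusp5 and Hbegf averaged below 1 FPKM in gelADSC and passed the filter on low values through the control libraries.

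Relatives of the early genes did not move as 1 block. Of 4 tested genes beside Btg2 in the list of Ier5l and the Btg and Tob family, 2 were lower, 0 higher, and 0 higher at an unadjusted p under 0.05. Btg1 read 6.62 and 7.91 FPKM in gelADSC and 27.6 and 24.4 FPKM in control, and Btg3 read 4.62 and 4.28 FPKM in gelADSC and 17.6 and 15.2 FPKM in control. Both were called under all 11 alternatives, with adjusted p of 0.000911 and 0.00101. Among 7 other Klf genes tested 2 were lower and 1 higher, with 4 lower and 2 higher at an unadjusted p under 0.05. Of all tested genes 17.5% were lower and 6.92% higher. The median log2 change of the 7 was -0.51. Klf15 stood higher but did not pass the test, at 45.0 and 56.6 FPKM in gelADSC and 13.2 and 39.7 FPKM in control. Klf16 and Klf13 fell with log2 changes of -1.15 and -0.80, and both calls were lost without control library 1 and with no filter. That of Klf13 was also lost without either gelADSC library. Klf12, a repressor of the AP-2 alpha gene, was higher, at 4.76 and 5.52 FPKM in gelADSC and 1.09 and 1.22 FPKM in control (adjusted p = 0.00220). Nab1, a corepressor that binds Egr proteins, was the 1 of 2 tested genes of its list that was lower, at 15.5 and 16.9 FPKM in gelADSC and 31.6 and 31.0 FPKM in control (adjusted p = 0.0102). Its adjusted p reached 0.0712 when a library was left out.

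Myc partners and the regulators of early gene transcription mostly did not pass the test. Of 11 tested genes of the Myc network, 0 were lower by limma (3 at an unadjusted p under 0.05) and 1 was higher, with a median log2 change of 0.00. The higher gene was Mlxipl, which encodes the glucose-responsive factor ChREBP, at 84.2 and 88.8 FPKM in gelADSC and 32.3 and 22.3 FPKM in control (adjusted p = 0.00164). Of 9 tested regulators around serum response factor and CREB, 0 were lower by limma (2 at an unadjusted p under 0.05) and 1 higher, Elk4, at 4.12 FPKM in both gelADSC libraries and 1.91 and 1.97 FPKM in control (adjusted p = 0.0262). The call of Elk4 was lost whenever any of the 4 libraries was left out, and with no filter on low values.

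Among 25 Myc target genes of cell growth 9 were lower and 0 higher by limma, with 15 lower and 0 higher at an unadjusted p under 0.05, and the median log2 change was -0.67. Odc1, ornithine decarboxylase of polyamine synthesis, read 23.5 and 22.0 FPKM in gelADSC and 114 and 77.8 FPKM in control (log2 change -2.003, adjusted p = 0.000759) and was called under all 11 alternatives. Srm, spermidine synthase, and the nucleolar proteins Npm1 and Nop58 fell with log2 changes of -1.06, -1.01 and -0.99. Neither scaling kept the calls of these 3, nor did the fits with no filter or without control library 1. The call of Nop58 was also lost without gelADSC library 2. The number called lower was 3 under median ratio scaling, 2 under quantile normalization, 1 with no filter, 1 without control library 1, 4 without gelADSC library 2, 14 without control library 3 and 14 of the 23 tested with a filter at a mean of 5 FPKM. The counts under both scalings, with no filter and without control library 1 are near the shares of all genes given with the AP-1 family. Of 15 p53 targets tested 4 were lower and 0 higher (1 higher at an unadjusted p under 0.05), with a median log2 change of -0.40. Cdkn1a, which encodes the cell cycle inhibitor p21, read 5.56 and 40.5 FPKM in gelADSC and 133 and 101 FPKM in control (limma adjusted p = 0.0205). Its gelADSC libraries were far apart. The call of Cdkn1a was lost without either control library, with either scaling and with no filter. Gdf15, Sesn2 and Bax had log2 changes of -1.41, -1.10 and -1.03. Without control library 1, 0 of the p53 targets were called, with no filter 0, under median ratio scaling 1 and under quantile normalization 2. These counts are near or below the shares of all genes called lower in those settings (3.01%, 4.16%, 8.56% and 9.06%).

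**Figure D4:**
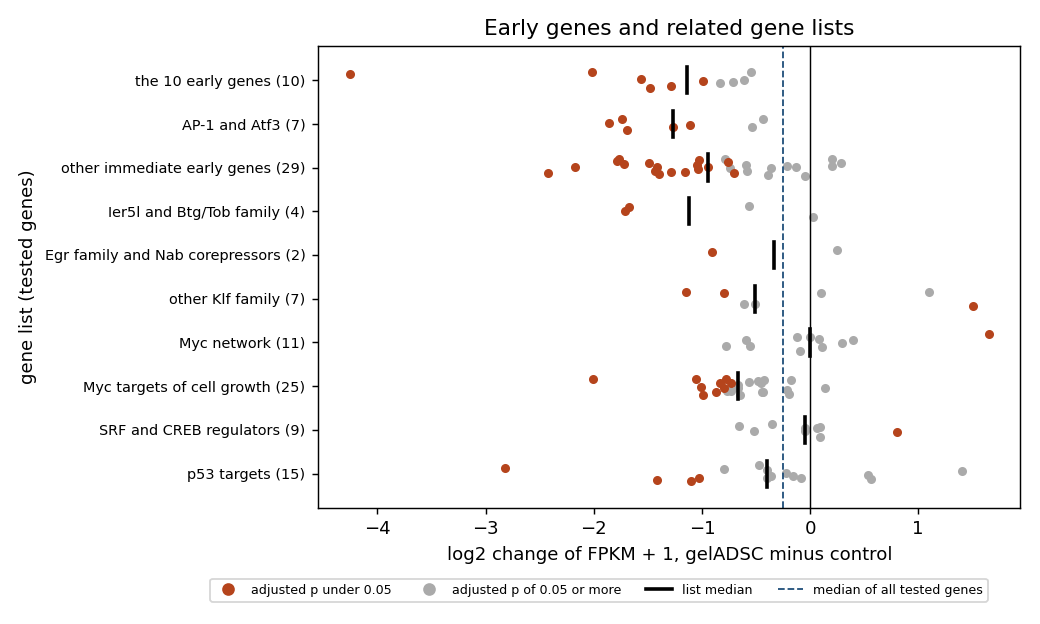
Log2 change, gelADSC minus control, of each tested gene in the early genes and in 9 related lists, with the number tested in brackets. Red points passed an adjusted p of 0.05, black lines are list medians and the dashed line is the median of all tested genes at -0.25. Fosl1, listed at 0 in gelADSC, is plotted at its fitted value. The early genes and the AP-1 list have medians of -1.14 and -1.26, and the Myc network has a median of 0.00.

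Levels of other cell type markers were summed in each library. Kupffer cell and macrophage markers (12) came to 449 and 294 FPKM in gelADSC and 438 and 465 FPKM in control, with 1 lower (Cd68). Marco alone read 130 and 29.8 FPKM in gelADSC and 99.3 and 123 FPKM in control. Monocyte and neutrophil markers (8 of 10 tested) came to 246 and 71.7 FPKM in gelADSC and 151 and 162 FPKM in control, with 1 lower (Retnlg). The largest part of that sum was Lyz2, at 165 and 43.9 FPKM in gelADSC and 71.3 and 86.9 FPKM in control. Stellate cell markers (12) came to 154 and 127 FPKM in gelADSC and 175 and 82.0 FPKM in control, with 4 higher (Lrat, Reln, Colec11 and Rgs5). Dcn, with a log2 change of 0.00, made up most of that sum, at 85.2 and 73.5 FPKM in gelADSC and 113 and 55.3 FPKM in control. The median log2 change of the 12 was 0.36. Bile duct markers (6 of 7 tested) came to 63.5 and 55.2 FPKM in gelADSC and 178 and 319 FPKM in control, with 2 lower (Sox9 and Spp1). Spp1 made up most of that sum, at 52.1 and 43.5 FPKM in gelADSC and 150 and 298 FPKM in control, while Epcam and Krt7 had log2 changes of 0.03 and -0.16 and did not pass the test. Markers of adipose and mesenchymal stem cells (6 of 10 tested) came to 73.0 and 43.0 FPKM in gelADSC and 160 and 92.6 FPKM in control, with 3 lower (Fabp4, Nt5e and Cd44). Markers of T, B and NK cells (0 of 10 tested) came to 2.01 and 2.97 FPKM in gelADSC and 0.274 and 0.284 FPKM in control. Erythroid markers other than the globins came to 40.1 and 38.9 FPKM in gelADSC and 10.95 and 9.99 FPKM in control, with 1 higher (Alas2). The part of these cell types in the early gene levels was not tested. The called markers in this paragraph were named after their values were seen. By the same test 17.5% of all tested genes were lower and 6.92% higher.

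The 5 genes whose centred profile over the 4 libraries lay closest to the median profile of the early genes were Gm10872, Adamtsl4, Susd4, Avpi1 and Fdx1l, at Euclidean distances from 0.0920 to 0.166 on the log2 scale. Avpi1, a vasopressin-induced gene, was the most abundant of them, at 34.1 and 29.2 FPKM in gelADSC and 84.3 and 57.7 FPKM in control. They were chosen for this pattern, so their differences are a description.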

How the data were processed

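Liver RNA of 2 gelADSC and 2 control samples was prepared with the RNeasy Mini kit and made into libraries with a TruSeq stranded mRNA kit, per the labels' protocols. The deposited table names no unit. Its values were taken as FPKM, since Cufflinks 2.2.1 is named beside Trimmomatic 0.38 and TopHat2 2.1.1, per the submitters' processing notes, and the values are not whole and sum to between 495761 and 517719 per library. Those notes also name hg19, which cannot be the reference of mouse symbols. The sources used here do not state annotation or counting, strand included, and in GENCODE M21 0 of the 10 early genes are overlapped by another gene. Column numbers (1 and 3, 2 and 3) do not match the sample titles, so columns were mapped to groups only.

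Values were tested as log2(FPKM + 1), unscaled, by limma 3.58.1 (R 4.3.3) using a mean-variance trend, over the 11070 genes averaging 1 FPKM or more. The procedure was tested on simulated data, with a common spread for all genes set below the average of the data. Changes were placed only in genes of high level. This does not test calls of genes with a low level or a wide spread. Intervals are at 95%. Read numbers are approximate and cover no library preparation error: steps between values under 0.2 FPKM gave relative depths, and single-transcript genes of GENCODE M21 the absolute scale (the best-filled bin of 1% width held 352 of 1188). A read in a 2 kb gene was worth 0.0204 to 0.0275 FPKM. Genes named from a list are the up to 4 called ones with the largest log2 change. The early genes, lists, motifs and alternatives were chosen with earlier results of these data known.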

Additional observations from a re-analysis of the deposited data

How the results depend on the processing

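Alternatives were another added value (0.1 or 5), no filter or a filter at a mean of 5 FPKM, median ratio scaling, quantile normalization, limma without a trend and leaving out each library. The direction of all 10 early genes was the same in each of them in which the gene was tested. Called lower were 6 of 10 as reported, 3 with no filter (Klf6, Ier3 and Btg2, against 4.16% of all tested genes), 4 with either scaling (against 8.56% and 9.06%), and 3 to 8 when a library was left out. Klf4 is not tested with the filter at 5. The median log2 change of the early genes lay between -1.44 and -0.80 with a library left out, and over all settings between -1.44 and -0.67. Over all genes 1936 were lower as reported, 730 with no filter, 948 under median ratio scaling, 1003 under quantile normalization and 331 to 1708 with a library left out, where 303 to 775 were higher. Fits without a library take the spread of a gene from the other group and assume that the lone library varies like it. Limma also pulls that spread towards a value shared over genes. In the fits without a gelADSC library the shared value dominated, so that the spread of the gene itself counted for little. A call in such a fit can therefore pass despite a wide gap between the libraries left, and these calls are a description. The alternatives were run for 29 called genes outside the early genes, 24 named by the list rule and 5 by profile, and 6 of them were called under every alternative that tested them. Called markers and Jund were not among these. The cause of lost calls was not tested. No paired analysis was possible because the columns carry other numbers than the titles and the groups share only the number 3. With 2 libraries a group the 95% interval of Egr1 reached from -1.59 to 0.37, and low read numbers limit Klf4 and, in gelADSC, Ier3.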

Other observations

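Some relatives of the early genes were below the filter on low values and were not tested. Egr2 read 0.0553 and 0.0837 FPKM in gelADSC and 1.07 and 0.428 FPKM in control. Fosb read 0.0543 and 0.158 FPKM in gelADSC and 1.22 and 0.746 FPKM in control. Mycn read 0.111 and 0.0956 FPKM in gelADSC and 0.580 and 0.659 FPKM in control. Ier5l read 0.657 and 0.287 FPKM in gelADSC and 1.38 and 0.921 FPKM in control. Klf1 read 1.44 and 1.26 FPKM in gelADSC and 0.654 and 0.468 FPKM in control. Klf7 read 1.10 and 0.817 FPKM in gelADSC and 0.676 and 0.827 FPKM in control, so that its groups overlapped. These genes were named after their values were seen. Of all 18 untested list genes, both gelADSC libraries were lower in 6 and higher in 2, and the groups overlapped or were tied in 10, among them Klf8, Batf, Nr4a2 and Nr4a3. Both gelADSC libraries were lower for 50.5% of the tested genes, a set of higher level, and the share among all untested genes was not computed. Egr4, Klf14 and Btg4 were listed at 0 in all 4 libraries.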
